A study of Mus musculus with 4 samples.

Results

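The chemokine ligands and receptors of mouse inguinal fat were described in RNA-seq counts after treatment of mice with MHE, a medicinal herb extract, or with phosphate-buffered saline (PBS). The 56 genes, 39 ligands and 17 receptors, were taken by symbol from the 26214 symbols of the count files: Ccl, Cxcl, Ccr and Cxcr genes with a plain number, with Cx3cl1, Cx3cr1, Xcl1 and Xcr1 added. They are described as pairs of ligand and receptor. Each treatment had 2 libraries of total RNA from inguinal white adipose tissue, of which the stromal vascular fraction was used, the cells that remain once floating adipocytes are removed. The labels call the libraries biological replicates and name no strain, sex, age, diet, dose, route or duration, nor the herbs in the extract, nor whether a library pools animals. The library protocol speaks of triplicates, and the 2 libraries of each treatment in hand were analysed here. Library totals were 31052064 and 27161882 counts (MHE) and 27695144 and 33391075 counts (PBS).

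Chemokines are small secreted proteins that direct the movement of leukocytes through G protein-coupled receptors on the cell surface. They are grouped by the spacing of their leading cysteines into the CC, CXC, CX3C and C families. Homeostatic chemokines are made without a stimulus and place cells in lymphoid tissue, as Ccl19 and Ccl21 do for cells that carry Ccr7. Inflammatory chemokines are induced in injury or infection and recruit monocytes, neutrophils and effector lymphocytes. In fat, Ccl2 and its receptor Ccr2 are best known for the recruitment of monocytes in obesity.

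Several ligand genes lie in near-identical copies on chromosome 4, and their counts have to be read as sets. The stretch of coding sequence that tells Ccl21a from Ccl21b is shown here from GENCODE M21 transcripts (GRCm38, the assembly behind mm10), bases 70 to 208 of the coding sequence, with the differing bases in capitals.
Ccl21a: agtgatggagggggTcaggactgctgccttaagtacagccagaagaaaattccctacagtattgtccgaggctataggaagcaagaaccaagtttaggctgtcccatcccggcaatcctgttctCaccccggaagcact
Ccl21b: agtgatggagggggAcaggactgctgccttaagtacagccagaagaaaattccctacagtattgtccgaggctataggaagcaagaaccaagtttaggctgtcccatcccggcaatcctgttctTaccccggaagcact

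Those 2 bases were the only differences over 399 coding bases (99.5% identical), and Ccl21b did not differ from the copy Gm10591 at any of them. Of all stretches of 50 bases in Ccl21b transcripts, 71.7% also occurred in Ccl21a, and 100% in Gm10591. Ccl21c and Gm10591 were listed with the same counts in all 4 libraries, 24113 and 11682 with MHE and 10833 and 128 with PBS. Ccl21d was listed at 0 throughout. Ccl19 was also listed at 0 in all 4 libraries. Its pseudogene copies, which are not among the 56 genes, carried counts instead: Ccl19-ps1 had 2060 and 1570 with MHE against 142 and 34 with PBS, and Ccl19-ps2 had 2330 and 1734 against 150 and 68. Ccl19-ps1 shared 45.3% of its 50-base stretches with Ccl19, and Ccl19-ps2 had no transcript in the annotation used. The sources used here do not say how reads that match several places were counted. No count of these copies can therefore be assigned to a single gene. Ccl27a and Ccl27b are a further set, in which Ccl27b shared 61.4% of its stretches with Ccl27a.

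**Figure D1:**
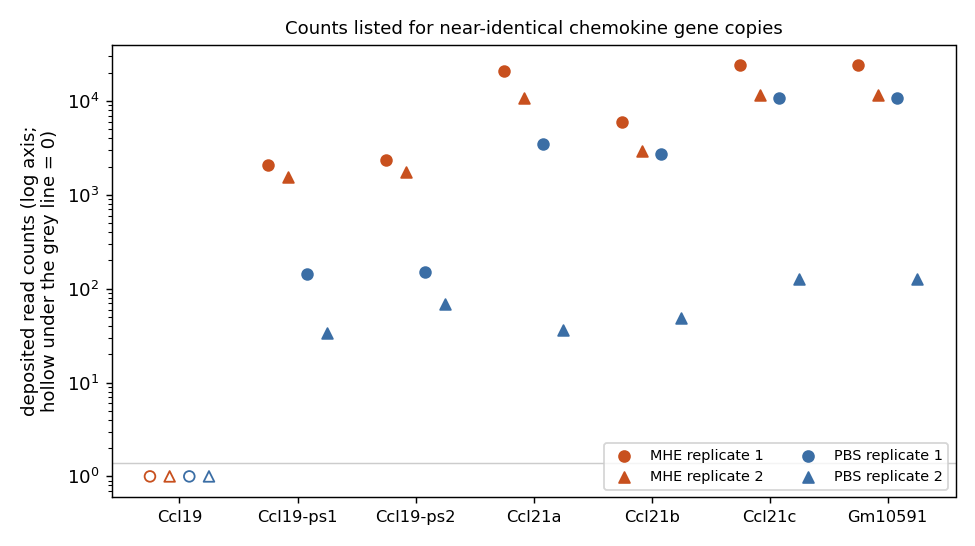
Deposited read counts (log axis) of the Ccl19 and Ccl21 copies in each library, with MHE in orange left of PBS in blue, circles for replicate 1 and triangles for replicate 2. Ccl19 lies at 0 in all 4 libraries, Ccl21c and Gm10591 have the same 4 values, and PBS replicate 2 has the fewest counts of each copy that has any.

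The libraries differed in markers of other cells, and these values stand beside every result that follows. The summed level of 12 T cell markers was 1080 and 776 counts per 1000000 scaled library counts (CPM) with MHE and 51.4 and 28.3 CPM with PBS, and that of 10 B cell markers 1931 and 1571 CPM against 114 and 9.70 CPM. The 6 dendritic cell markers summed to 131 and 83.9 CPM with MHE and 26.9 and 28.8 CPM with PBS. The 10 macrophage markers summed to 1171 and 1634 CPM with MHE and 2066 and 1127 CPM with PBS, so the groups overlapped. Of 8 neutrophil markers, Ly6g was at 0 counts in every library, and the sum was 24.7 and 13.1 CPM with MHE and 19.4 and 10.6 CPM with PBS. The 6 reticular and lymph node stroma markers summed to 149 and 114 CPM with MHE and 91.4 and 78.2 CPM with PBS. Of these 6, 4 had positive log2 fold changes and 2 negative ones (Ltbr -0.704 and Pdpn -0.596). Ltbr stood lower in both MHE libraries, and the groups overlapped for Pdpn. Glycam1, a mucin of lymph node venules, had the largest log2 fold change of the 6. It had 72.1 and 28.1 CPM with MHE and 0.0722 and 0 CPM with PBS. Markers of adipocytes, which the fraction should lack, summed to 20827 and 12786 CPM with MHE and 25041 and 35431 CPM with PBS. In bulk RNA, more cells of a type and more RNA per cell cannot be told apart, and the part of these cell types in the chemokine results was not tested.

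The receptors Ccr6, Ccr7, Cxcr2, Cxcr4 and Xcr1 and the ligands Ccl5, Ccl22 and Cxcl10 rose with MHE, and no tested chemokine gene fell. Of the 47 genes with enough counts to be tested, these 8 made up 17.0% in edgeR's quasi-likelihood test, with Benjamini-Hochberg adjustment over all genes and a threshold of 0.05. Over all 16196 genes tested, 3.97% rose. None of the 47 fell, against 0.963% of all genes. Both MHE libraries stood above both PBS libraries in 26 of the 47 (55.3%) and below them in 3 (6.38%), against 33.1% and 28.9% of all genes. The log2 fold change was positive in 32 of 47, against 48.8% of all genes, and its median was 1.50, against -0.02 over all genes. Of 16 tested receptors, 5 rose and 12 stood above PBS in both MHE libraries, while of 31 tested ligands, 3 rose and 14 stood above. The difference between receptors and ligands was not tested.

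The 9 genes not tested were Ccl1, Ccl19, Ccl20, Ccl21d, Ccl26, Cxcl3, Cxcl11, Cxcl17 and Cxcr1, and 3 of them (Ccl19, Ccl21d and Ccl26) had no count in any library. DESeq2 called 17 of the 47 higher and 1 lower, against 1714 higher and 1237 lower of all 16196 genes. Leaving out either MHE library, with the other assumed to vary as the PBS libraries do, left no gene of any kind past the threshold (2352 genes at an unadjusted p under 0.05 without replicate 1, and 2596 without replicate 2). Without PBS replicate 1, the median log2 fold change of the chemokine genes was 2.16, against 0.03 over all genes. Without PBS replicate 2, it was 1.11, against -0.01 over all genes. Which chemokine genes passed changed with the PBS library left out, as given below. A fit with 1 PBS library takes its spread from the MHE libraries alone, and more genes of every kind passed in it. Passing in such a fit is therefore no support for a difference.

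**Figure D2:**
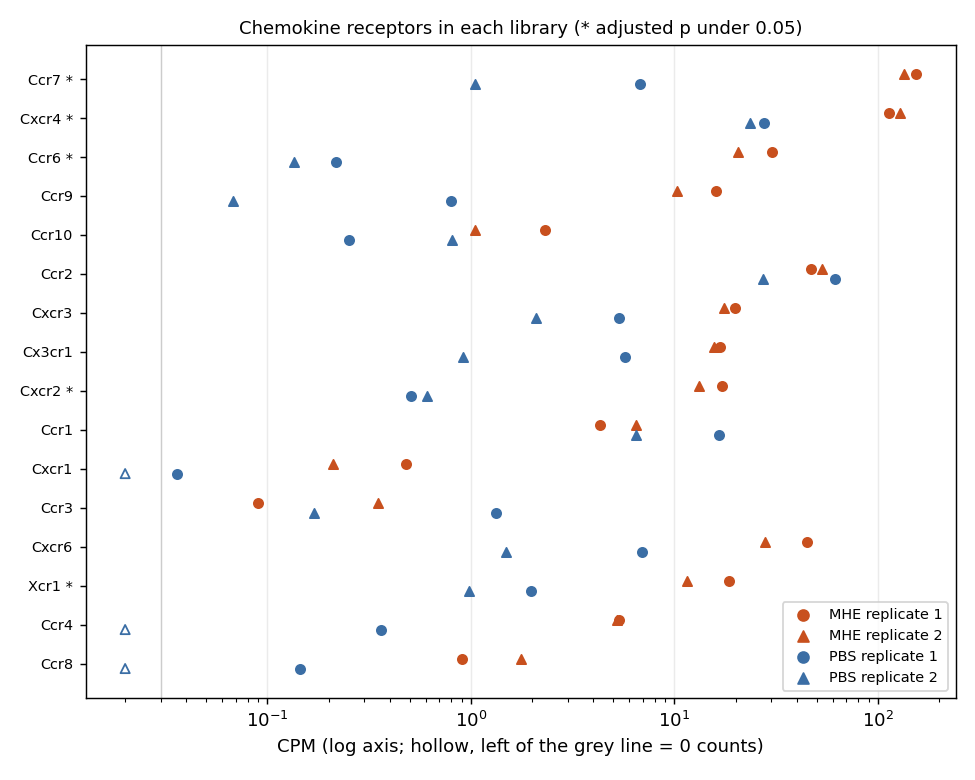
Level of 16 receptors in CPM (log axis) in each library, MHE in orange above PBS in blue, with homeostatic, inflammatory and other receptors in that order down the page and an asterisk at those that rose. Ccr7 and Cxcr4 are the highest receptors of the MHE libraries, and Ccr6 is at 0.217 and 0.135 CPM in the PBS libraries.

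Of the 5 homeostatic receptors, 3 rose with MHE and all 5 stood above PBS in both MHE libraries. Ccr7 brings T cells, B cells and mature dendritic cells into lymph nodes. It had 154 and 134 CPM in MHE libraries, against 6.75 and 1.05 CPM in PBS libraries. Both MHE libraries were thus far above both PBS libraries, which themselves differed, and the log2 fold change was 5.21 ± 0.91 (SE, n = 2 libraries each, adjusted p = 0.0480). Without PBS replicate 1 the log2 fold change of Ccr7 was 7.08, and without PBS replicate 2 it was 4.43. Its call was lost without the low-count filter (adjusted p = 0.0787). Ccr7 lies on chromosome 11 (99144199 to 99155077, RefSeq on GRCm38.p6).

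The ligands of Ccr7 differed less evenly. Ccl21a, which lymph node stroma and lymphatic vessels secrete, had 630 and 375 CPM with MHE and 124 and 1.22 CPM with PBS. Ccl21b had 182 and 103 CPM against 98.9 and 1.66 CPM, and Ccl21c had 726 and 410 CPM against 391 and 4.33 CPM. For all 3 copies, both MHE libraries were above both PBS libraries, yet PBS replicate 1 was close to MHE replicate 2 for Ccl21b and Ccl21c. None passed, with log2 fold changes of 3.0 ± 1.77, 1.50 ± 1.54 and 1.52 ± 1.68 and adjusted p of 0.319, 0.552 and 0.580. Without PBS replicate 1 they were 8.67, 6.41 and 7.02, and all 3 passed. Without PBS replicate 2, Ccl21a passed with 2.02, while Ccl21b and Ccl21c had 0.54 and 0.55 (adjusted p = 0.425 and 0.497 in edgeR). The 6 lymphatic endothelial markers summed to 235 and 237 CPM with MHE and 111 and 71.5 CPM with PBS. Lyve1 among them rose by 1.67 on the log2 scale. Prox1, Flt4, Reln and Pdpn had log2 fold changes of 3.50, 1.03, 1.18 and -0.596 and did not pass. Mmrn1, chosen after its values were seen, did not pass either. It had 43.0 and 44.0 CPM with MHE and 25.3 and 1.69 CPM with PBS. PBS libraries were closer for Lyve1 (38.8 and 34.4 CPM), Flt4 (12.4 and 16.5 CPM) and Reln (8.09 and 5.68 CPM). With PBS, Pdpn had 23.8 and 12.7 CPM and Prox1 had 2.71 and 0.541 CPM. The part of the lymphatic markers in the Ccl21 values was not tested. The 3 Ccl21 rows held 45.5% and 30.0% of all chemokine gene counts in MHE libraries, against 25.8% and 0.589% in PBS libraries. If reads that match several copies were counted for each copy, these shares and the sums that follow count them more than once. Counts of Ccl21a were 0.867 and 0.915 times those of Ccl21c with MHE and 0.318 and 0.281 times with PBS. The pseudogene rows Ccl19-ps1 and Ccl19-ps2 rose, with log2 fold changes of 4.23 ± 0.72 (adjusted p = 0.0460) and 4.09 ± 0.46 (adjusted p = 0.0248). Gene copies were also summed, a step added after the values were seen. The Ccl19 set then held the counts of these pseudogene rows alone. It had 132 and 116 CPM with MHE and 10.5 and 3.45 CPM with PBS (log2 fold change 4.15 ± 0.59, adjusted p = 0.0356). The Ccl21 set did not pass when summed (1.96 ± 1.69, adjusted p = 0.480).

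Ccr6, a receptor of B cells and some helper T cells, had the largest log2 fold change of the 47. It had 30.2 and 20.6 CPM with MHE, against 0.217 and 0.135 CPM with PBS, which were 6 and 4 counts. The log2 fold change was 7.15 ± 0.43 (adjusted p = 0.0192), and as a ratio of counts it was 148, with an exact 95% counting interval of 80.1 to 308. Ccr6 overlaps a long noncoding RNA gene, Gm33799, in RefSeq, so without strand its reads cannot be assigned with certainty. Ccl20, the chemokine ligand of Ccr6, was near the detection limit, with 14 and 8 counts in MHE libraries and 0 in both PBS libraries. With 3 counts over the group taken as the floor for PBS, the ratio of MHE to PBS is 6.81. The exact 95% counting interval of the ratio starts at 5.09 and leaves out variation between libraries.

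Cxcr4, which holds leukocytes and progenitors near cells that make Cxcl12, had 113 and 128 CPM with MHE and 27.5 and 23.6 CPM with PBS. These groups were far apart, and each was tight, with a log2 fold change of 2.24 ± 0.22 (adjusted p = 0.0212). Cxcl12, made by stromal and progenitor cells, was abundant in every library, at 488 and 482 CPM with MHE and 232 and 366 CPM with PBS. Its log2 fold change of 0.70 ± 0.33 did not pass (adjusted p = 0.236), although both MHE libraries stood higher. Per kilobase of exon, Cxcl12 stood at 59.7 and 59.0 CPM with MHE and 28.4 and 44.8 CPM with PBS, and Cxcr4 at 62.4 and 71.0 CPM against 15.2 and 13.0 CPM. On that scale the receptor was above its ligand in MHE libraries and below it in PBS libraries. The length used merges all annotated exons of a gene, 8176 bases for Cxcl12 and 1808 for Cxcr4. A shorter Cxcl12 transcript would raise its value, so the order in MHE libraries depends on the length used.

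Ccr9 and Ccr10 did not pass. Ccr9, a gut-homing receptor, had 16.0 and 10.4 CPM with MHE and 0.794 and 0.0676 CPM with PBS (log2 fold change 4.94 ± 0.98, adjusted p = 0.0584), and it passed when PBS replicate 1 was left out (7.51) or PBS replicate 2 was (4.06). Its ligand Ccl25 was low and overlapped between groups, at 1.60 and 1.69 CPM with MHE and 1.16 and 1.69 CPM with PBS. Ccr10, a skin- and mucosa-homing receptor, had 2.32 and 1.05 CPM with MHE and 0.253 and 0.811 CPM with PBS. The groups overlapped for its ligands: Ccl27a had 6.35 and 4.70 CPM against 10.4 and 5.41 CPM, and Ccl28 had 0.722 and 0.632 CPM against 6.82 and 0.541 CPM. The high Ccl28 value was that of PBS replicate 1, where 6 epithelial markers summed to 134 CPM, against 5.18 and 6.35 CPM in MHE libraries and 2.06 CPM in PBS replicate 2. The part of that in the value was not tested. Cxcl14, a constitutive ligand of skin and fat whose main receptor is not settled, overlapped between groups (19.8 and 17.8 CPM with MHE, 11.5 and 25.3 CPM with PBS).

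**Figure D3:**
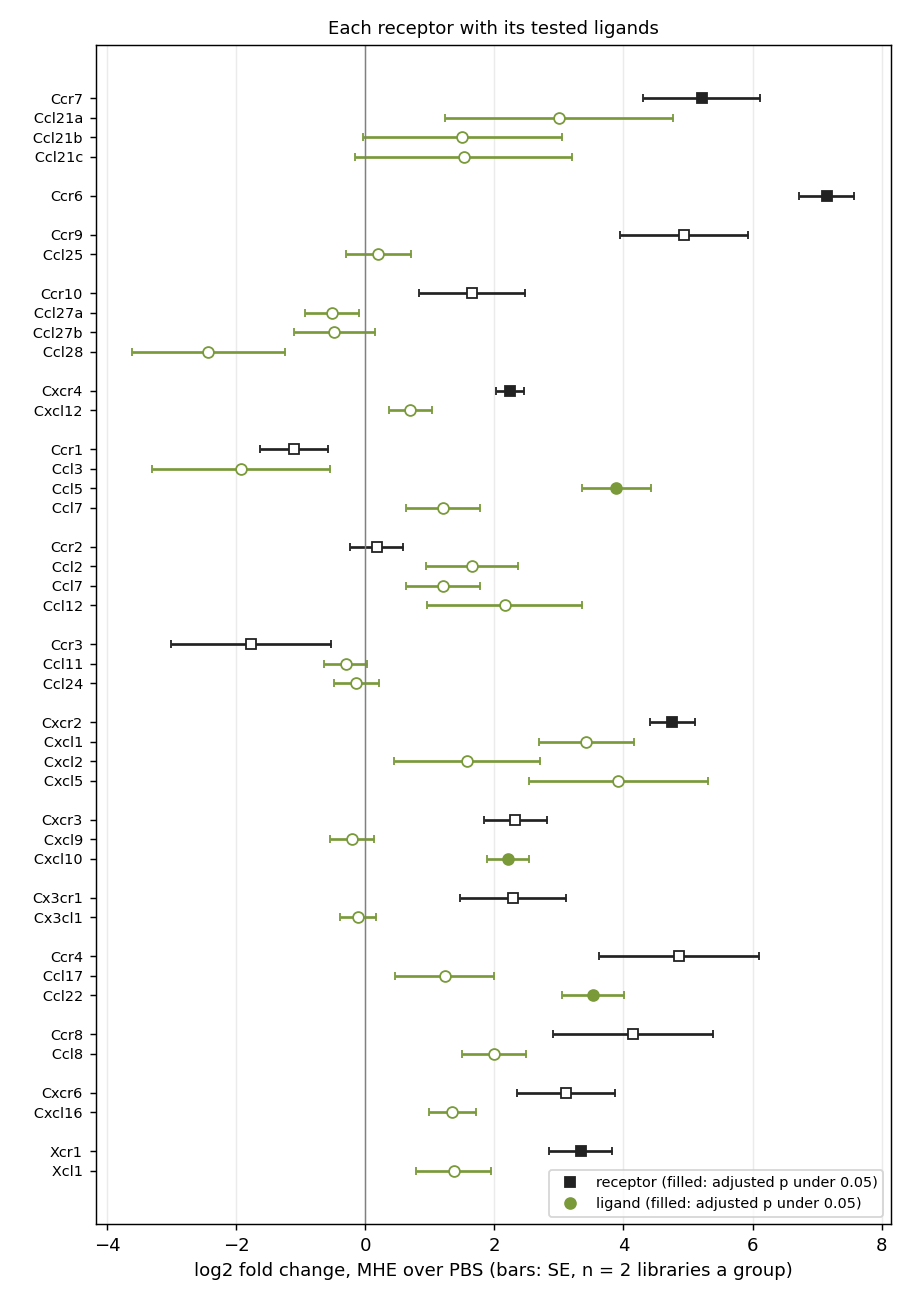
Log2 fold change of MHE over PBS (squares, receptors; circles, their tested ligands; bars, SE, n = 2 libraries a group), filled where the adjusted p was under 0.05. No receptor has a filled square together with a filled circle: 5 receptors rose and 3 tested ligands rose, and they belong to different pairs. Ccl19, listed at 0 counts, was not tested and is not drawn.

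Ligands and receptors were set side by side in 35 pairs over 16 receptors, 30 of them with both genes tested. In 8 pairs the receptor alone rose, in 4 the ligand alone rose, in 18 neither did, and in none did both. Ccr7 with Ccl19 is not among the 30, as Ccl19 was listed at 0 counts. The summed counts of its pseudogene rows Ccl19-ps1 and Ccl19-ps2 did rise (4.15 ± 0.59, adjusted p = 0.0356 in edgeR). Ccl19 added no count to that sum, so the sum is no value of the Ccl19 gene. A gene that missed the threshold is not shown to be unchanged, and pairs that share a gene are not independent.

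Among the 7 tested inflammatory receptors, Cxcr2 alone rose. Cxcr2 is the receptor of neutrophils for Cxcl1 and related ligands. It had 17.2 and 13.2 CPM with MHE, against 0.505 and 0.608 CPM with PBS, with both groups tight (log2 fold change 4.76 ± 0.35, adjusted p = 0.0192). Of the neutrophil markers, Csf3r had 8.04 and 10.2 CPM with MHE and 7.18 and 2.97 CPM with PBS, S100a9 had 8.61 and 1.12 CPM against 2.02 and 1.89 CPM, and S100a8 had 6.56 and 1.33 CPM against 9.75 and 5.24 CPM. None of these 3 passed. Per 100 counts of T cell markers, Cxcr2 had 1.59 and 1.70 counts with MHE and 0.983 and 2.15 with PBS, which overlap. Per 100 counts of B cell markers, Cxcr2 overlapped too, with 0.891 and 0.840 with MHE and 0.444 and 6.27 with PBS. It stayed above PBS per 100 counts of dendritic cell markers (13.2 and 15.7 with MHE, 1.88 and 2.12 with PBS) and of macrophage markers (1.47 and 0.808 with MHE, 0.0245 and 0.0540 with PBS). Cxcr1, the related receptor, had 16 and 6 counts with MHE and 1 and 0 with PBS.

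The ligands of Cxcr2 were highest in MHE replicate 2. Cxcl1 had 12.7 and 44.9 CPM with MHE and 1.80 and 3.55 CPM with PBS, so that the groups did not overlap, and its log2 fold change of 3.42 ± 0.73 did not pass (adjusted p = 0.0668). Cxcl2 had 0.542 and 3.72 CPM against 1.12 and 0.304 CPM, an overlap. Cxcl5 had 0.361 and 1.37 CPM against 0.108 and 0 CPM, and Cxcl3 had a single count in each MHE library and none with PBS. Cxcl1, Cxcl2 and Cxcl3 are neighbours on chromosome 5, and their promoters are shown because each holds the same run of letters close to the gene's start. The sequences are from RefSeq on GRCm38.p6, plus strand, with the match to the NF-kappaB-like motif GGGANTTTC in capitals.
Cxcl1, chr5:90891154-90891202: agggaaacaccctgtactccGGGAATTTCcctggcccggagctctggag
Cxcl2, chr5:90903782-90903830: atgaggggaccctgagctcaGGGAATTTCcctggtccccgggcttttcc
Cxcl3, chr5:90786008-90786056: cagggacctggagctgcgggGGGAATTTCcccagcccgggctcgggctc

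The match began 71, 97 and 73 bases before the start of Cxcl1, Cxcl2 and Cxcl3. Searched on both strands of the 250 bases before each start, this motif was found in 6 of the 41 chemokine genes that the promoter table holds (also Cxcl9, Cxcr2 and Ccr3), against 1.11% of the 27025 genes in that table. A match is a run of letters and shows no binding.

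The groups overlapped for the monocyte receptors. Ccr2, the monocyte receptor for Ccl2, had 47.1 and 53.2 CPM with MHE and 61.6 and 27.1 CPM with PBS. Ccr1, shared by monocytes and neutrophils, had 4.30 and 6.46 CPM against 16.6 and 6.46 CPM. In both, PBS replicate 1 was the highest library, as it was for 7 of the 10 macrophage markers, among them Adgre1 (37.9 and 88.4 CPM with MHE, 200 and 72.4 CPM with PBS) and Cd68 (71.8 and 125 CPM with MHE, 308 and 95.8 CPM with PBS). Neither receptor passed. The log2 fold change of Ccr1 was -1.62 without PBS replicate 2, which passed, and -0.28 without PBS replicate 1 (adjusted p = 0.690 in edgeR), against -1.10 with all libraries. Ccr3, the eosinophil receptor, had at most 1.34 CPM, while its ligands Ccl11 (37.8 and 69.9 CPM with MHE, 66.7 and 66.2 CPM with PBS) and Ccl24 (8.79 and 7.30 CPM with MHE, 6.68 and 11.0 CPM with PBS) were present and overlapped. Cx3cr1, carried by patrolling monocytes and some macrophages, had 16.7 and 15.6 CPM with MHE and 5.70 and 0.912 CPM with PBS (adjusted p = 0.155), and its membrane-bound ligand Cx3cl1 overlapped between groups, at 10.2 and 11.7 CPM against 9.78 and 14.0 CPM. Without PBS replicate 1, Cx3cr1 passed with 4.13, and without PBS replicate 2 with 1.51.

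Of 14 tested inflammatory ligands, Ccl5 and Cxcl10 rose. Ccl5, secreted by T cells and NK cells and read by Ccr1, had 115 and 105 CPM with MHE, against 10.9 and 3.92 CPM with PBS. Every MHE library was several times above every PBS library (log2 fold change 3.89 ± 0.54, adjusted p = 0.0340), although Ccr1 had a log2 fold change of -1.10 ± 0.53. Without PBS replicate 1, Ccl5 had 4.79. Of 6 NK cell markers, Eomes and Prf1 rose, by 4.37 and 3.41 on the log2 scale. The other 4 did not pass, with Klrb1c, a surface receptor of NK cells, at 1.86 ± 0.59 (adjusted p = 0.127). Ccl5 overlaps the noncoding gene Gm32650 in RefSeq. For the related ligands Ccl3 and Ccl4, made by macrophages and T cells, the groups overlapped. Ccl3 had 0.301 and 0.527 CPM with MHE and 3.03 and 0.135 CPM with PBS, and Ccl4 had 0.421 and 0.597 CPM against 0.830 and 0.304 CPM.

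The ligands of Cxcr3, which draws effector T cells and NK cells towards interferon-induced chemokines, divided. Cxcl10 had 8.88 and 8.78 CPM with MHE, against 1.73 and 2.06 CPM with PBS, with little spread in either group (log2 fold change 2.22 ± 0.32, adjusted p = 0.0375). Cxcl9 had more reads in every library, at 65.6 and 65.1 CPM with MHE and 51.6 and 98.7 CPM with PBS, and its groups overlapped (-0.20 ± 0.34, adjusted p = 0.729). Cxcl11 had at most 9 counts. Cxcr3 itself had 19.7 and 17.5 CPM with MHE and 5.34 and 2.10 CPM with PBS (log2 fold change 2.32 ± 0.49, adjusted p = 0.0646), and it passed when PBS replicate 1 was left out (3.13) or PBS replicate 2 was (1.81). Per kilobase of exon, Cxcl9 stood at 21.8 and 21.6 CPM with MHE and 17.1 and 32.7 CPM with PBS, above Cxcl10 at 3.94 and 3.90 CPM against 0.769 and 0.915 CPM. The exons of Cxcl10 overlap 133 bases of Art3 on the opposite strand. The promoter stretch of Cxcl10 that matches the interferon-response-like motif GAAANNGAA is shown because Cxcl10 was the ligand of this set that rose. It is from RefSeq on GRCm38.p6, minus strand, with the match in capitals.
Cxcl10, chr5:92349074-92349122: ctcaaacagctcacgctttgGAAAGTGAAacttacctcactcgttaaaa

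That match began 213 bases before the start of Cxcl10. Cxcl9 holds a match to both motifs, and the interferon-response-like motif was found in 8 of the 41 chemokine genes, against 8.18% of all genes in the table.

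**Figure D4:**
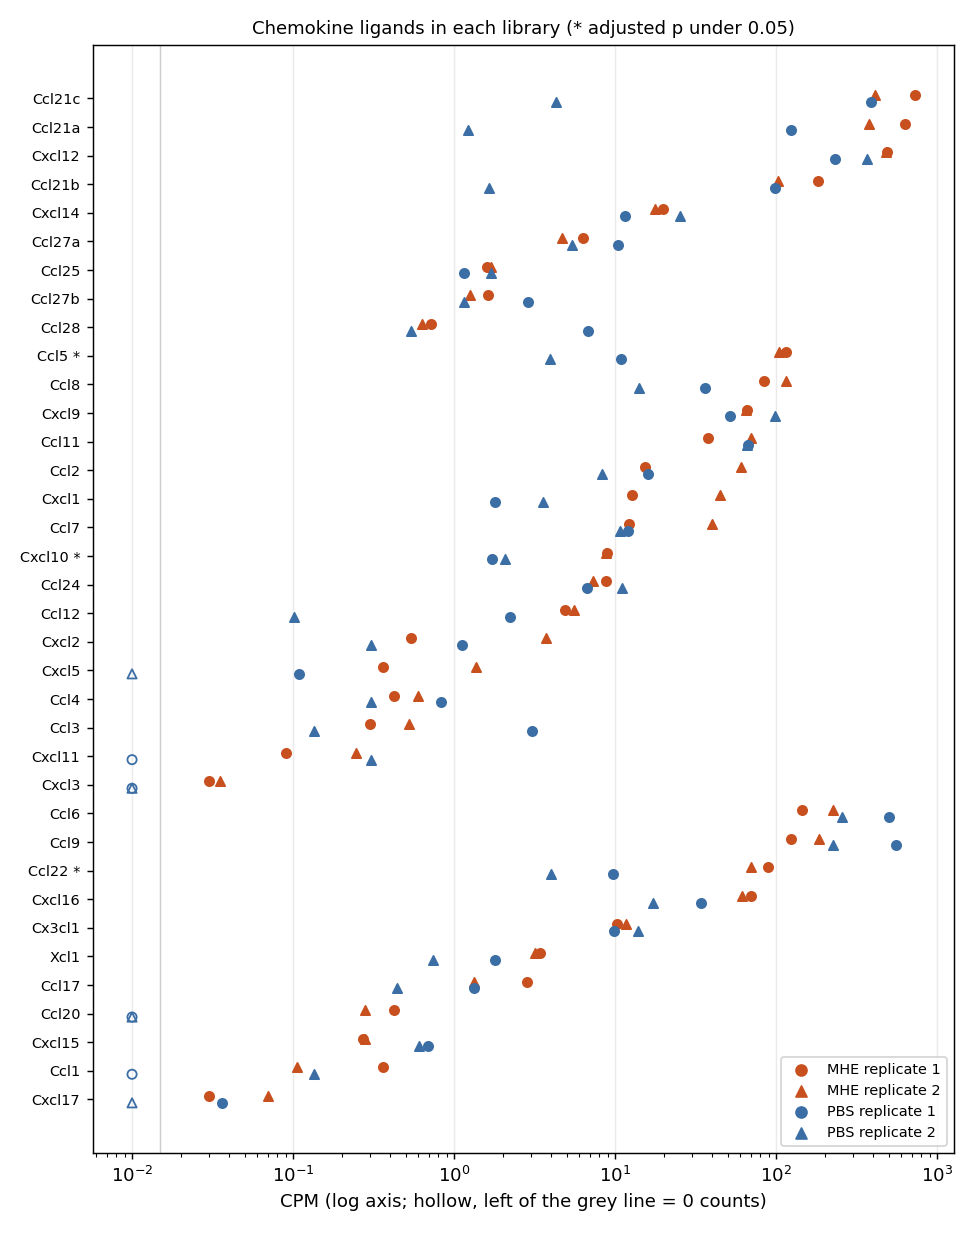
Level of each ligand with a count in any library in CPM (log axis), MHE in orange above PBS in blue, with homeostatic, inflammatory and other ligands in that order down the page and an asterisk at those that rose. Ccl5, Cxcl10 and Ccl22 carry the asterisks, and Ccl6 and Ccl9 are the abundant ligands with both MHE libraries below both PBS libraries.

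The monocyte-attracting ligands were uneven within the MHE group. Ccl2 had 15.4 and 60.7 CPM with MHE and 16.0 and 8.25 CPM with PBS, and Ccl7 had 12.3 and 40.3 CPM against 11.9 and 10.8 CPM. For both, MHE replicate 2 stood apart while MHE replicate 1 was close to PBS replicate 1, and neither passed (log2 fold changes 1.65 ± 0.71 and 1.21 ± 0.57). Cxcl1 and Cxcl2 were also highest in MHE replicate 2. So was the sum of progenitor and fibroblast markers, at 1382 and 4673 CPM with MHE and 2814 and 3486 CPM with PBS. Of these markers, Col1a1, Col1a2, Pdgfra and Dpp4 were highest in MHE replicate 2. Dcn and Lum were highest in PBS replicate 1, Pi16 and Ly6a in PBS replicate 2, and Cd55 in MHE replicate 1. The part of these markers in the ligand values was not tested. Ccl12, a mouse ligand of Ccr2, had 4.88 and 5.58 CPM with MHE and 2.24 and 0.101 CPM with PBS (log2 fold change 2.16 ± 1.20, adjusted p = 0.296). It passed without PBS replicate 1 (5.62) and not without PBS replicate 2 (1.23, adjusted p = 0.122).

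Of the 8 tested ligands with dual or other roles, Ccl22 rose. Ccl22, secreted by dendritic cells and macrophages and read by Ccr4 on regulatory and type 2 T cells, had 89.4 and 69.6 CPM with MHE, against 9.75 and 4.02 CPM with PBS (log2 fold change 3.53 ± 0.48, adjusted p = 0.0335). It had 4.29 without PBS replicate 1. The other ligand of Ccr4, Ccl17, overlapped between groups at 2.83 and 1.33 CPM with MHE and 1.34 and 0.439 CPM with PBS. Ccr4 had 5.36 and 5.23 CPM with MHE and 0.361 and 0 CPM with PBS, 10 counts in all with PBS, and did not pass (adjusted p = 0.0882). It passed without PBS replicate 2 (3.87).

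Ccl8 in the mouse is a ligand of Ccr8, a receptor of type 2 and regulatory T cells. Ccl8 had 83.7 and 116 CPM with MHE and 36.0 and 14.2 CPM with PBS (log2 fold change 1.99 ± 0.49, adjusted p = 0.0841), and it passed when PBS replicate 1 was left out (2.80) or PBS replicate 2 was (1.48). Ccr8 had 30 and 50 counts with MHE and 4 and 0 with PBS.

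Xcr1 marks the cross-presenting dendritic cells and reads Xcl1, which NK cells and CD8 T cells secrete. Xcr1 rose, with 18.5 and 11.6 CPM with MHE and 1.99 and 0.980 CPM with PBS (log2 fold change 3.34 ± 0.49, adjusted p = 0.0375), and Xcl1 had 3.43 and 3.16 CPM against 1.80 and 0.744 CPM (1.37 ± 0.58, adjusted p = 0.199). Xcl1 passed without PBS replicate 1 (2.13) and not without PBS replicate 2 (0.88, adjusted p = 0.337). Of 6 dendritic cell markers, Itgae, Siglech and Flt3 rose, by 4.02, 3.97 and 3.28 on the log2 scale. Clec9a had 1.22 ± 0.27 (adjusted p = 0.0702). Of the remaining markers, named after their values were seen, Batf3 had 1.22 ± 0.39 (adjusted p = 0.127) and Zbtb46, a factor of conventional dendritic cells, overlapped between groups (0.13 ± 0.30, adjusted p = 0.806).

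Cxcr6 and Cxcl16 both had both MHE libraries above both PBS libraries without passing. Cxcr6, a receptor of resident T cells and NKT cells, had 45.0 and 27.9 CPM with MHE and 6.97 and 1.49 CPM with PBS (3.11 ± 0.76, adjusted p = 0.0827), and it passed when PBS replicate 1 was left out (4.60) or PBS replicate 2 was (2.40). Cxcl16, a membrane-bound ligand and scavenger receptor of macrophages, had 70.2 and 61.0 CPM against 34.3 and 17.2 CPM (1.35 ± 0.37, adjusted p = 0.0978), and it passed without PBS replicate 1 (1.91) but not without PBS replicate 2 (0.95, adjusted p = 0.0662). In total 7 of the 47 genes had an adjusted p between the threshold and 0.1: Ccr4, Ccr9, Cxcr3, Cxcr6, Ccl8, Cxcl1 and Cxcl16, all with positive log2 fold changes.

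The ligands with both MHE libraries below both PBS libraries were Ccl6, Ccl9 and Cxcl15. Ccl6 and Ccl9 are macrophage-derived CC chemokines of the mouse, and Ccl9 is read by Ccr1. Ccl6 had 145 and 224 CPM with MHE and 505 and 257 CPM with PBS, and Ccl9 had 123 and 185 CPM against 557 and 224 CPM. PBS replicate 1 stood apart in both, and the gap between MHE replicate 2 and PBS replicate 2 was small. They did not pass (log2 fold changes -1.04 ± 0.44 and -1.34 ± 0.51, adjusted p = 0.194 and 0.171). Without PBS replicate 2, both passed, at -1.44 and -1.85, and without PBS replicate 1 they did not, at -0.49 and -0.56 (adjusted p = 0.405 and 0.325 in edgeR). Per 100 counts of macrophage markers, Ccl6 had 12.4 and 13.7 counts with MHE and 24.4 and 22.8 with PBS, and Ccl9 had 10.5 and 11.3 against 27.0 and 19.9. On that scale, which was chosen after the values were seen, PBS replicate 1 no longer stood apart for Ccl6. Cxcl15 had at most 19 counts.

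Receptor counts were also set against the lymphocyte markers of the same library, as a description with no test, since with 2 libraries on each side the smallest two-sided p of an exact permutation test is 0.333. Per 100 counts of B cell markers, Ccr7 had 7.96 and 8.55 counts with MHE and 5.93 and 10.8 with PBS, so the PBS libraries lay on either side of the MHE libraries. Ccr9 had 0.831 and 0.659 counts on that scale with MHE and 0.697 and 0.697 with PBS. Its PBS values rest on 22 and 2 Ccr9 counts, so the value of PBS replicate 2 is imprecise. Per 100 counts of T cell markers, Ccr7 had 14.2 and 17.3 counts with MHE and 13.1 and 3.70 with PBS. Per 100 counts of dendritic cell markers, Ccr7 had 118 and 160 counts with MHE and 25.1 and 3.64 with PBS, and Ccr9 had 12.3 and 12.3 against 2.96 and 0.235, so that on this scale both stayed above PBS. Ccr6 stayed above PBS per 100 T cell marker counts, at 2.79 and 2.66 with MHE and 0.421 and 0.478 with PBS, while per 100 B cell marker counts its groups overlapped (1.56 and 1.31 against 0.190 and 1.39).

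For other receptors and some ligands the order of the groups turned on these scales. Cxcr4, higher with MHE in CPM, had 10.4 and 16.5 counts per 100 T cell marker counts with MHE and 53.6 and 83.4 with PBS. Cxcr3 had 1.83 and 2.25 with MHE and 10.4 and 7.41 with PBS. Cxcr6 had 4.17 and 3.59 against 13.6 and 5.26, and Xcr1 had 1.71 and 1.49 against 3.86 and 3.46. Of the ligands, Ccl5 had 10.6 and 13.5 against 21.2 and 13.9, and Ccl22 had 8.27 and 8.97 against 19.0 and 14.2. Per 100 dendritic cell marker counts, Cxcr6, Xcr1, Ccl5 and Ccl22 stayed above PBS. Cells other than T cells express these genes, so a ratio to T cell markers is no level per T cell. Per 100 macrophage marker counts, an added scale, Ccr2 had 4.02 and 3.26 counts with MHE and 2.98 and 2.40 with PBS, and Ccr1 had 0.368 and 0.395 against 0.804 and 0.573.

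**Figure D5:**
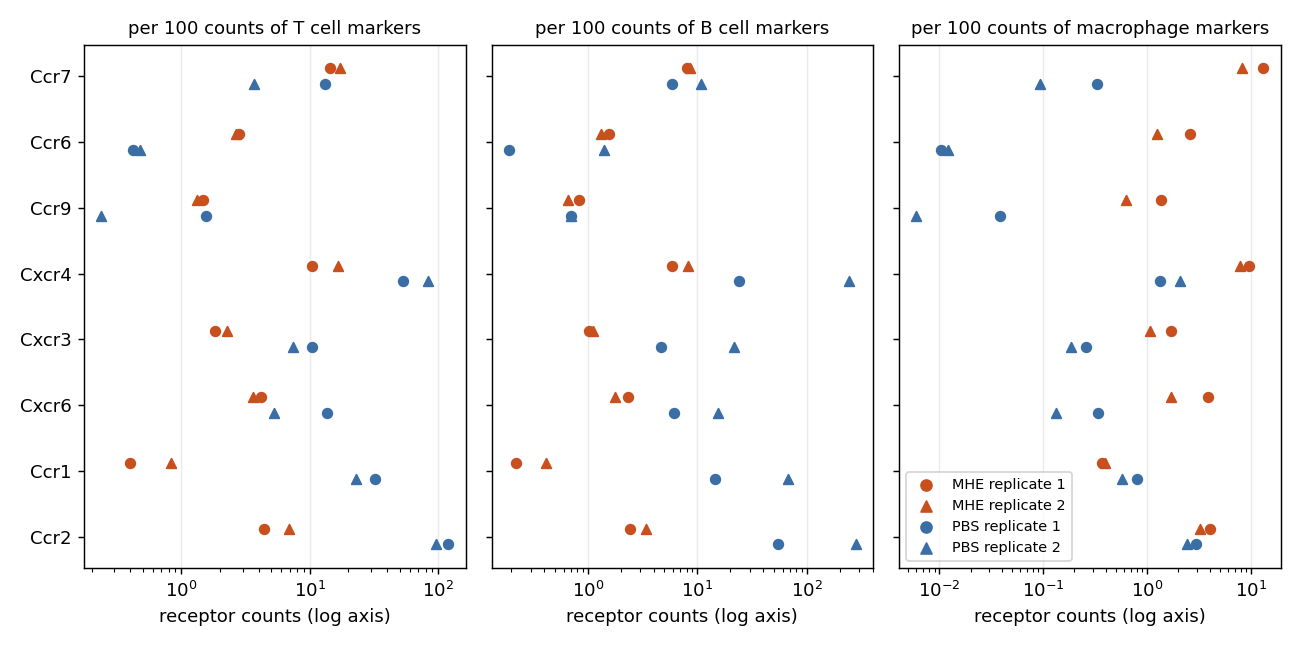
Counts of 8 receptors per 100 summed counts of T cell, B cell or macrophage markers in each library (log axes), MHE in orange above PBS in blue. Ccr7 and Ccr9 lie close together in all 4 libraries per B cell marker counts, where Ccr9 in PBS replicate 2 rests on 2 counts. Cxcr4, Cxcr3, Cxcr6, Ccr1 and Ccr2 lie lower with MHE per T cell marker counts.

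The atypical receptors, which bind chemokines without G protein signalling and scavenge or present them, gave no call. None of the 5 passed, and 4 had negative log2 fold changes (median -0.39). Ackr3, which scavenges Cxcl12, had 28.1 and 39.3 CPM with MHE and 47.1 and 71.0 CPM with PBS (-0.81 ± 0.30, adjusted p = 0.160), and Ccrl2 had 7.53 and 7.30 CPM against 13.5 and 10.8 CPM (-0.71 ± 0.26, adjusted p = 0.156). Ackr3 and Ccrl2 thus stood lower in both MHE libraries. Ackr4, the scavenger of Ccl19 and Ccl21, had 8.04 and 5.69 CPM with MHE and 6.32 and 5.31 CPM with PBS. Ackr1 of venules and red cells (10.8 and 7.55 CPM against 7.76 and 11.6 CPM) and Ackr2 of lymphatic vessels (5.63 and 10.8 CPM against 6.79 and 14.7 CPM) overlapped. Without PBS replicate 2 the median of the 5 was 0.13.

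Of 29 genes that carry the signal of chemokine receptors, 4 rose and none fell, against 3.97% and 0.963% of all genes. Their median log2 fold change was 0.47. Leaving out PBS replicate 1 gave 1.23, and leaving out PBS replicate 2 gave 0.26. Prex1, which activates Rac downstream of G protein subunits, had 123 and 129 CPM with MHE and 37.4 and 30.5 CPM with PBS (1.89 ± 0.22, adjusted p = 0.0248). Elmo1, a partner of Dock2 in cell migration, rose by 1.53, Grk6, a kinase that desensitises receptors, by 1.90, and Pik3cg, the leukocyte PI3 kinase of these receptors, by 1.48 on the log2 scale. Leukocytes of many kinds express these genes, and the part of the T and B cell markers in these values was not tested. Of 6 other chemokines and regulators none passed: Dpp4, a protease that trims Cxcl12 and Cxcl10, had 56.1 and 61.6 CPM with MHE and 32.8 and 34.7 CPM with PBS (adjusted p = 0.0732), and the platelet chemokine Pf4 had 32.6 and 25.9 CPM against 44.5 and 34.6 CPM.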

How the data were processed

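RNA-seq was made from total RNA, 2 libraries for each of MHE and PBS. The authors deposited counts, whole numbers by gene symbol in 1 file a library, with no normalization. Per the submitters' processing notes, TopHat2, edgeR, limma and the build mm10 were used. The counter, its annotation, strand setting and all versions: not given in the sources used here. Counts were tested with edgeR 4.0.16 in R 4.3.3 (filterByExpr with a minimum count of 10 and a total of 15, TMM scaling, quasi-likelihood F-test, robust), with Benjamini-Hochberg adjustment over 16196 genes and a threshold of 0.05. CPM values use TMM-scaled library sizes, and SE is the log2 fold change divided by the root of F. The fit was tested on simulated data with spread set by expression level alone, so genes as uneven as Ccl21a in PBS were not modelled. DESeq2 1.42.0, other scalings and filters, a replicate block, each library left out and summed gene copies were alternatives. Depth was 27161882 to 33391075 counts, and intervals cover counting error only. p-values set the difference between groups against the spread between these libraries, which edgeR estimates in part from all genes. Exon lengths and coding sequences came from GENCODE M21, and promoters and gene positions from RefSeq on GRCm38.p6. The members and the gene lists were chosen with earlier results of these data known. Every gene past the threshold and its ligand or receptor partners are given by library. Of each marker and signalling list, up to 4 genes with the smallest p are named, and all atypical receptors. Some chemokine genes are not reported here, of which 1 tested receptor enters the counts over the 47 genes and the pairs.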

Additional observations from a re-analysis of the deposited data

How the results depend on the processing

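With 2 libraries a group, each call rests on few residual degrees of freedom. The count of chemokine genes higher with MHE was 8 of 47, and it was 17 with DESeq2, which also called 1 lower (Ccl9). Over all 16196 genes, DESeq2 called 1714 higher and 1237 lower. The count of chemokine genes was otherwise close to that of the main fit. It was 8 with median-of-ratios factors, library totals, the newer quasi-likelihood setting and the stricter filter, and 7 without a filter (Ccr7 missed). With gene copies summed it was 9, with the Ccl19 set, made of pseudogene counts alone, among them. Leaving out 1 library gave 0 to 22 higher and 0 to 5 lower, and the cause was not tested. No gene passed without MHE replicate 1 or without MHE replicate 2, where 14 and 12 chemokine genes were higher at an unadjusted p under 0.05. All 8 kept positive log2 fold changes without PBS replicate 1 and without PBS replicate 2. In those fits the spread comes from the MHE libraries alone, so passing in them is no support. Replicate numbers are shared by the groups but the labels give no shared origin. Deviations of same-numbered libraries from their group mean correlated at 0.120. With 2 libraries a group, both replicate numbers must give this same value, so it cannot show whether libraries are paired. With the replicate number as a block, 7 genes were called higher and 6 of the 8 were among them. Ccr7 and Cxcl10 missed under this block (adjusted p = 0.0551 each in edgeR), and Cxcl1 passed (3.25, adjusted p = 0.0383).

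No called gene changed direction. Of the others, Cxcl14 had -0.0046 with median-of-ratios factors and with DESeq2. With library totals, which moved the median of all genes to 0.14, Ccl24 had 0.050 and Cx3cl1 had 0.062. Leaving out 1 library gave log2 fold changes on both sides of 0 for 14 uncalled genes: Ccl11 (-0.80 to 0.087), Ccl24 (-0.47 to 0.28), Ccl25 (-0.059 to 0.51), Ccl27a (-0.89 to 0.018), Ccl27b (-0.99 to 0.32), Ccl28 (-3.31 to 0.31), Ccl3 (-2.86 to 1.56), Ccl4 (-0.70 to 0.71), Ccr2 (-0.29 to 0.87), Ccr3 (-2.98 to 0.33), Cx3cl1 (-0.37 to 0.17), Cxcl14 (-0.44 to 0.72), Cxcl2 (-0.37 to 2.76) and Cxcl9 (-0.61 to 0.35). The median of the atypical receptors ran from -0.67 to 0.13, and that of other chemokines and regulators from -0.35 to 0.10.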
